A study of Mus musculus with 32 samples.

Results

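This comparison follows mouse embryonic stem cells (ESCs) through 4 days of monolayer differentiation after a moderate pulse of exogenous β-catenin had been withdrawn. Its members are the 4 C1MV libraries, collected at day 4, and the 4 C1M libraries, collected at day 0 in pluripotent culture, which were chosen by their sample labels and make up 8 of the 32 libraries of the series. All cells are of the C1 line, which lacks endogenous β-catenin and was infected with 2 lentiviruses. The first expresses the rtTA transactivator from EF1a, and the second carries DDmCherryβ-catenin, in which the S33Y mutant of β-catenin, which escapes degradation, follows mCherry and a destabilizing domain, under the TRE3G promoter. In this line doxycycline (dox) starts transcription of the fusion and trimethoprim (TMP) stabilizes the protein. Both groups were exposed to 100 ng/mL dox and 10 μM TMP for 48 h and sorted by mCherry as the middle fraction, and the C1M cells were collected then. C1MV cells were plated in NDiff227 medium with DMSO, without dox, TMP, LIF or the 2i inhibitors, and collected after 4 days. The labels name serum with LIF as growth medium, whereas the methods of the study describe 2i/L for the sequenced cells. Medium, inducers, replating, time in culture and the interval between sort and collection all changed together between the groups, so their shares in a difference cannot be told apart.

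Naive ESCs keep their state through a network of transcription factors that LIF, acting through STAT3, and block of the MEK and GSK3 kinases maintain. Once these inputs are removed the cells pass through a formative, post-implantation epiblast-like state, in which FGF and ERK signalling and Nodal are active, de novo DNA methyltransferases are made, and neural ectoderm, mesoderm or endoderm programs become available. β-catenin is both a partner of cadherins at cell junctions and the co-activator through which Wnt signals act on TCF and LEF factors.

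RNA was read from the 3′ end of transcripts (QuantSeq) and the levels are given as CPM, counts relative to all gene reads of a library, after TMM scaling, per library in the order of the replicate numbers. C1M libraries held 2300242 to 3008252 gene reads and C1MV libraries 1366951 to 2780255, where replicate 4 was the shallowest. The libraries also differed in composition, with 2.24 to 2.58% of reads from mitochondrial genes in C1M and 0.688 to 0.971% in C1MV, and with 24.6 to 27.1 and 14.4 to 18.7 reads outside annotated genes per 100 gene reads. Alignments set aside as not unique numbered 143.6 to 147.4 per 100 gene reads in C1M and 134.8 to 154.3 in C1MV. A library of C1M, replicate 3, stood apart. Among 49 genes that were over 20-fold higher in C1MV without overlap, it had the highest C1M level in 22, against 1 to 4 for each of the other C1M libraries, and their summed level was 101 CPM in it and 31.8 to 40.8 CPM in the others, against a median of 1954 CPM in C1MV. Fold changes that moved by over 1.5 times without this library are given below also without it.

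Ctnnb1, which encodes β-catenin, was not called between the groups. Its levels were 9.76, 12.1, 9.45 and 17.7 CPM in C1M and 10.5, 7.11, 6.91 and 12.1 CPM in C1MV (log2 fold change -0.47 ± 0.24 SE, FDR = 0.0972), and the groups overlapped. The FDR was 0.0497 without C1M replicate 3 and 0.0498 without C1MV replicate 4, at log2 fold changes of -0.58 and -0.58. Cells that had received TMP alone (C1) held 7.82 ± 2.63 CPM (SD, n = 4), and the high sorted fraction (C1H) 41.2 ± 5.70 CPM. The counts do not separate the fusion from transcripts of the disrupted locus. Axin2, a feedback target of β-catenin, was at 2.55, 1.42, 3.26 and 1.65 CPM in C1M and 2.42, 4.49, 1.45 and 2.85 CPM in C1MV, and was not called (log2 fold change 0.31 ± 0.50 SE, FDR = 0.635). These levels rest on few reads, since 3 reads in a library stand for 1.00 to 2.19 CPM.

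Of 15280 genes tested, 7007 (45.9%) differed between C1MV and C1M by edgeR's quasi-likelihood test with Benjamini-Hochberg adjustment (FDR under 0.05). Of all tested genes 22.0% were called higher and 23.9% lower in C1MV, which are 3358 and 3649 genes. With a log2 fold change over 2 or under -2, 419 genes rose (2.74%) and 819 fell (5.36%), and the median log2 fold change of all tested genes was -0.04. Shares of called members in the gene groups below are to be read against these figures. In bulk RNA, fewer cells of a type and less RNA per cell cannot be told apart, and this holds for each gene group that follows.

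**Figure D1:**
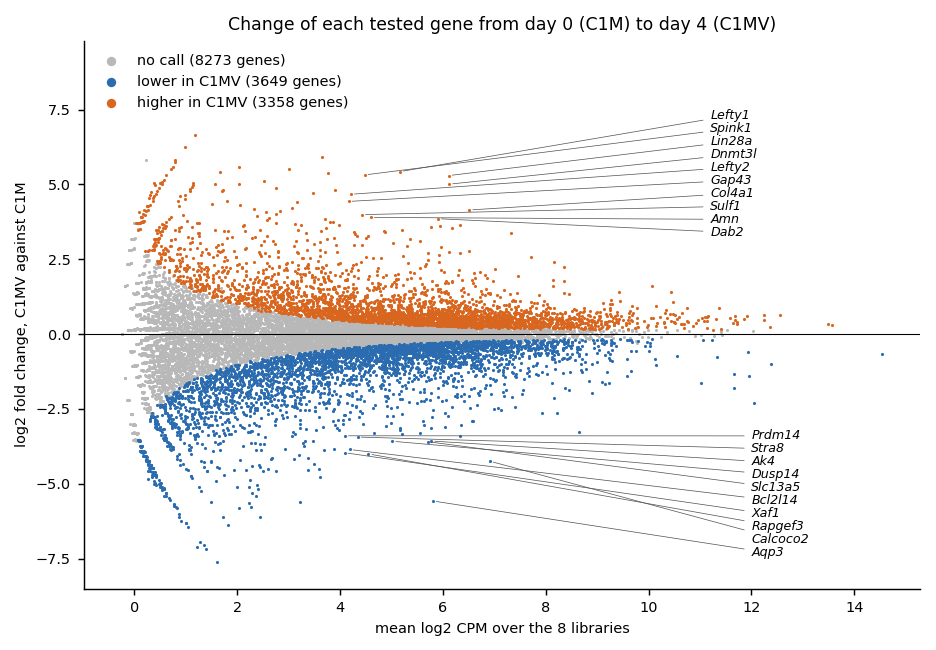
Log2 fold change of C1MV against C1M (vertical axis) by the mean log2 CPM of the 8 libraries (horizontal axis) for 15280 genes. Orange points are the 3358 genes called higher, blue points the 3649 called lower, grey points had no call, and names mark the 10 largest rises and falls of the ranked list.

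Among genes averaging log2 CPM 4 or more over the 8 libraries, without overlap between the groups, the largest rises comprised the Nodal inhibitors Lefty1 and Lefty2, the RNA-binding protein gene Lin28a, the methyltransferase cofactor gene Dnmt3l, the secreted protease inhibitor gene Spink1, the growth cone gene Gap43, the heparan sulfatase gene Sulf1 and the endoderm-associated genes Col4a1, Amn and Dab2. Lefty1 was at 3.82, 2.48, 12.4 and 2.89 CPM in C1M and 261, 264, 259.9 and 196 CPM in C1MV (log2 fold change 5.43 ± 0.23 SE, FDR = 1.1e-17). Lin28a went from 7.64, 9.58, 18.6 and 7.43 to 431, 511, 430.3 and 386 CPM (log2 fold change 5.29 ± 0.18 SE, FDR = 2.7e-20). For both genes C1M replicate 3 was the highest of its group, yet all C1MV libraries lay far above it. Without that library the log2 fold changes were 6.33 for Lefty1 and 5.73 for Lin28a. In the GENCODE annotation of GRCm38 Lefty2 (180893108 to 180899103) and Lefty1 (180935022 to 180938400) are neighbours on the plus strand of chromosome 1. Spink1 rose by 5.32 on the log2 scale, Gap43 by 4.43, Sulf1 by 3.99 and Dab2 by 3.85, and without C1M replicate 3 the values of Spink1 and Gap43 were 6.11 and 5.04.

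The largest falls by the same rule were in Aqp3, an aquaglyceroporin gene, Calcoco2, an autophagy receptor gene, Rapgef3, a cAMP-activated exchange factor gene, Xaf1, Bcl2l14, the citrate transporter gene Slc13a5, the phosphatase gene Dusp14, the adenylate kinase gene Ak4, the retinoic acid-stimulated gene Stra8 and the naive regulator Prdm14. Aqp3 was at 397, 424, 373 and 287 CPM in C1M and 7.26, 8.99, 7.27 and 7.13 CPM in C1MV (log2 fold change -5.57 ± 0.15 SE, FDR = 1.5e-50). Calcoco2 went from 534, 521, 515 and 532 CPM to 37.1, 21.7, 27.6 and 22.8 CPM (log2 fold change -4.25 ± 0.10 SE, FDR = 1.1e-80). The groups were far apart for both, and the spread within each was narrow. The other 8 had log2 fold changes from -4.0 (Rapgef3) to -3.4 (Prdm14).

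Most genes of the naive pluripotency network were lower in C1MV. Of 24 list members tested, 21 fell, 2 rose and 1 had no call, and the median log2 fold change was -1.30. Tfcp2l1, a LIF- and Wnt-responsive factor of the network, was at 1263, 1159, 1255 and 1271 CPM in C1M and 143, 119.8, 130.5 and 123 CPM in C1MV (log2 fold change -3.26 ± 0.08 SE, FDR = 9.4e-81). Prdm14, which represses the de novo methyltransferases, was at 51.4, 53.6, 45 and 53.2 CPM and then 6.05, 3.00, 3.63 and 7.85 CPM (log2 fold change -3.4 ± 0.21 SE, FDR = 1.3e-31). Both were low in all C1MV libraries and high in all C1M libraries. The NF-κB cofactor gene Bcl3 fell by 3.15 on the log2 scale. The 2 members that rose were Dppa4, a chromatin-associated gene (225–244 CPM to 267–368 CPM, log2 fold change 0.53 ± 0.08 SE, FDR = 3.3e-09), and Gbx2, which stayed under 10 CPM throughout (log2 fold change 1.55 ± 0.37 SE, FDR = 2.5e-04).

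Markers of ESC identity were all detected in C1M, as its label implies, and did not move together. Nanog was at 734, 689.6, 689 and 556 CPM in C1M and 194, 177, 148 and 219 CPM in C1MV (log2 fold change -1.87 ± 0.08 SE, FDR = 1.1e-43). Esrrb, an orphan nuclear receptor of the naive network, and Zfp42, known as Rex1, had log2 fold changes of -1.38 ± 0.09 and -1.07 ± 0.14 (SE). These genes fell but remained at 185, 142 and 148 CPM on average in C1MV. Sox2, which also serves neural progenitors, fell less, from 778, 747, 838 and 829 to 566, 464, 399.8 and 413 CPM (log2 fold change -0.79 ± 0.09 SE, FDR = 8.6e-12). Sall4 rose from 167–176 to 215–248 CPM (log2 fold change 0.43 ± 0.08 SE, FDR = 3.8e-06). Pou5f1 was at 38.6–46.6 CPM in C1M and 35–50.8 CPM in C1MV and was not called (log2 fold change 0.04 ± 0.13 SE, FDR = 0.804), but it has near-identical copies in the genome and its count of unique reads is uncertain.

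**Figure D2:**
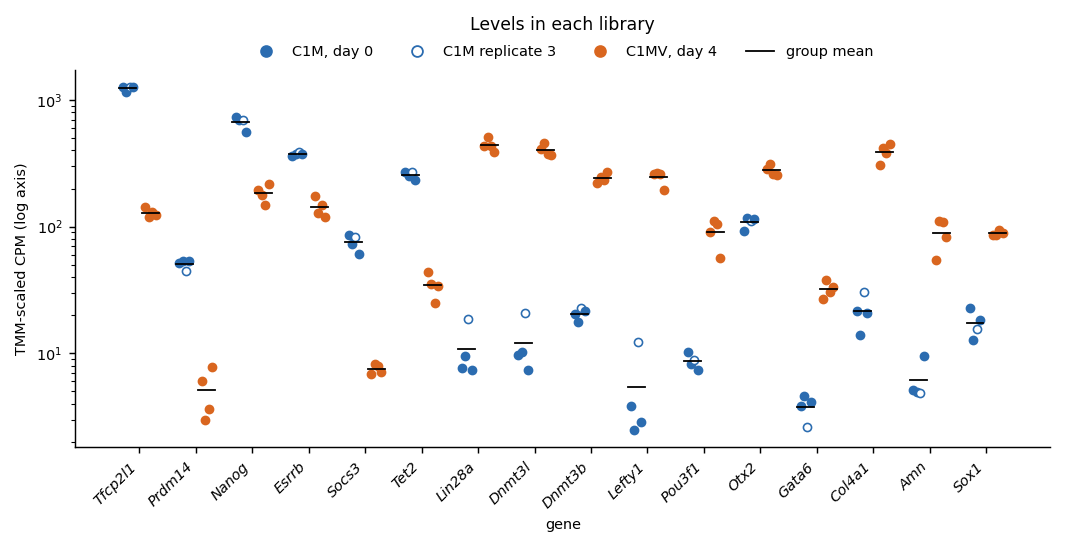
TMM-scaled CPM on a log axis for 16 genes in the 4 C1M (blue) and 4 C1MV (orange) libraries, with a bar at each group mean. Naive genes such as Tfcp2l1 and Nanog sit lower in C1MV, Lin28a, Dnmt3l and Lefty1 higher, with C1M replicate 3 (open circle) the highest C1M value for each of these 3.

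The wider pluripotency list went the other way. Of 13 members, 10 rose and 2 fell (median log2 fold change 0.43). Besides Lin28a, the largest rises were in Sall2 (3.55–8.26 to 20.7–25.1 CPM) and Zic2 (4.26–12.8 to 16.7–29.3 CPM), with log2 fold changes of 1.85 ± 0.23 and 1.21 ± 0.21 (SE). The 2 that fell were Sox2 and Tdgf1, the Nodal co-receptor gene also called Cripto, which went from 585, 597, 594 and 627 to 139, 136, 121 and 154 CPM (log2 fold change -2.14 ± 0.10 SE, FDR = 1.8e-28).

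Genes of the post-implantation epiblast rose. Of 21 members, 17 rose, 2 fell and 2 had no call, and all C1MV libraries lay above all C1M libraries for those 17, as they did for 18.3% of all tested genes. The tight junction gene Cldn6 was at 0.424, 1.06, 1.96 and 0 CPM in C1M and 17.7, 25.8, 33.4 and 43.5 CPM in C1MV (log2 fold change 4.88 ± 0.38 SE, FDR = 2.3e-17, and 5.66 on the log2 scale without C1M replicate 3). Lef1, a DNA-binding partner of β-catenin, was at 1.70, 1.42, 6.19 and 0.826 CPM and then 89.9, 78.6, 70.5 and 67.8 CPM (log2 fold change 4.81 ± 0.20 SE, FDR = 2.5e-46, and 5.82 without that library). Fgf15 rose from 0–2.28 to 13.3–21.1 CPM (log2 fold change 3.94 ± 0.36 SE, FDR = 4.0e-19, and 4.84 without C1M replicate 3). Another 3 members, chosen after their values were seen because they are common markers of this state, also rose. Pou3f1, also called Oct6, was at 10.2, 8.16, 8.80 and 7.43 CPM in C1M and 89.9, 112, 106 and 56.4 CPM in C1MV (log2 fold change 3.43 ± 0.19 SE, FDR = 2.7e-19). Otx2 went from 93–117 to 258–313 CPM (log2 fold change 1.36 ± 0.08 SE, FDR = 8.3e-33). Fgf5 stayed low, with 3 reads over the 4 C1M libraries and 40 over the 4 C1MV libraries, a ratio of levels of 15.3 (95% exact interval 4.87 to 77.3) that covers counting error only and is 35.5 without C1M replicate 4. Foxd3 fell from 23.9–31 to 5.09–10.7 CPM (log2 fold change -1.65 ± 0.21 SE, FDR = 2.3e-11) and Hmga2 fell by 0.87 on the log2 scale.

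Of 13 genes that act on DNA methylation 5 rose and 5 fell, with the de novo methyltransferases and their cofactor among the rises. Dnmt3l, the catalytically inactive cofactor, was at 9.76, 10.3, 20.9 and 7.43 CPM in C1M and 410.1, 456, 377 and 369 CPM in C1MV (log2 fold change 5.01 ± 0.15 SE, FDR = 7.0e-27, and 5.45 on the log2 scale without C1M replicate 3). The de novo methyltransferase gene Dnmt3b went from 20.4, 17.7, 22.8 and 21.5 to 219, 245, 234 and 271 CPM (log2 fold change 3.54 ± 0.12 SE, FDR = 1.9e-42), and Dnmt3a from 39.4–47.3 to 143–171 CPM (log2 fold change 1.81 ± 0.10 SE, FDR = 1.3e-38). The C1M and C1MV libraries did not overlap for any of the 3. Tet2, which oxidizes methylcytosine, fell from 272, 253, 271 and 234 to 44.0, 35.6, 25.1 and 34.2 CPM (log2 fold change -2.90 ± 0.11 SE, FDR = 3.6e-41). Zfp57, which protects methylation at imprinted loci, fell from 243, 216, 232 and 222 to 28.6, 25.1, 17.4 and 49.2 CPM (log2 fold change -3.02 ± 0.13 SE, FDR = 5.1e-31). The maintenance methyltransferase gene Dnmt1 was at 136–156 CPM in C1M and 112–147 CPM in C1MV and was not called (FDR = 0.0525), although 5 of the alternatives called it lower, with an FDR down to 0.0158 without C1MV replicate 1.

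The LIF and STAT3 list was split, with 6 members lower, 3 higher and 5 without a call. Socs3, a direct STAT3 target that feeds back on the receptor, was at 85.7, 72.7, 82.2 and 60.7 CPM in C1M and 6.85, 8.24, 8.00 and 7.13 CPM in C1MV (log2 fold change -3.30 ± 0.17 SE, FDR = 1.8e-39), so all C1MV libraries lay far below all C1M libraries. Tfcp2l1 and Bcl3, given above, were the next largest falls. The receptor subunit genes rose slightly, Lifr by 0.74 ± 0.12 and Il6st by 0.68 ± 0.14 (SE) on the log2 scale. The 250 bases before the RefSeq start of Socs3 (GRCm38.p6, chr11:117969367-117969616, minus strand) are shown because this gene had the largest fall of the list, with capitals marking the palindrome TTCNNNGAA to which STAT proteins bind.
Socs3: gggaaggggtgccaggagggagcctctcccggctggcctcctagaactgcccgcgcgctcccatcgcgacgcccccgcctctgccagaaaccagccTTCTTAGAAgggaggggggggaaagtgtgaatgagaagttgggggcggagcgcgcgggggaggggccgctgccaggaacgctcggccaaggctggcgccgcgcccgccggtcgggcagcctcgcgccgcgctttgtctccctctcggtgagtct
The match begins 154 bases before the start, and 7.02% of 32851 such windows hold 1 or more. Of the 6 members that fell, all have a window and only that of Socs3 holds this match, and of the 3 that rose none does.

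Genes of FGF, Nodal and BMP signalling mostly rose, 15 of 27 members against 5 that fell, with a median log2 fold change of 1.07 (1.06 with the 5 members at the floor in a group set to the fold that 3 reads per library allow). Among the ligands, Fgf17 had 0 reads in all C1M libraries and 1.21–6.42 CPM in C1MV, at least 2.81-fold higher against 3 reads per library. Nodal itself was at 48–60.7 and 43.3–59.3 CPM and was not called (log2 fold change -0.01 ± 0.12 SE, FDR = 0.966). Its antagonists and targets Lefty1 and Lefty2 rose, Lefty2 going from 1.27, 2.48, 6.85 and 2.89 to 107, 101, 77.8 and 78.5 CPM (log2 fold change 4.67 ± 0.22 SE, FDR = 6.0e-30). C1M replicate 3 was again the highest of its group for Lefty2, and without it the log2 fold change was 5.32. The 3 largest of the 5 falls were in Smad7, an intracellular inhibitor of the pathway (219.9, 182, 190.1 and 177 to 23.8, 25.8, 21.1 and 16.4 CPM, log2 fold change -3.10 ± 0.13 SE, FDR = 5.7e-42), in Inhbb, an activin subunit gene (38.3–52.4 to 2.54–12.5 CPM, log2 fold change -2.86, and -3.50 without C1MV replicate 1), and in the activin antagonist gene Fst (2.48–12.1 to 0.727–4.28 CPM, with overlap).

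Of 21 genes of ERK feedback and early response, 11 rose and 3 fell. Dusp4, a phosphatase gene that ERK activity induces, was at 1.70, 3.55, 6.85 and 2.48 CPM in C1M and 44.8, 65.2, 43.3 and 54.2 CPM in C1MV (log2 fold change 3.74 ± 0.21 SE, FDR = 2.6e-36). Spry4, an inhibitor of receptor tyrosine kinase signals, had 1 read in all of C1M and 41 in C1MV. The ratio of its levels was 47.0 (95% exact interval 7.98 to 1902), with counting error only. The read came from C1M replicate 3, without which the level in C1MV was at least 3.68-fold higher against 3 reads per library. Myc had 0 reads in C1M and 8 over the C1MV libraries, too few for a fold. The falls were in Fos (11.9–15.7 to 0.714–5.24 CPM, log2 fold change -2.37 ± 0.37 SE, FDR = 4.5e-08, and -3.02 on the log2 scale without C1MV replicate 1), Ets2 (log2 fold change -1.40) and Ier2 (-1.06), so members of this list moved both ways.

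Regulators of endoderm rose, 10 of 16 tested members against 3 that fell, with a median log2 fold change of 1.63. Cer1 and Gata5 did not reach the minimum for testing. The levels of the members that rose stayed modest. Gata6, a zinc-finger factor of primitive and definitive endoderm, was at 3.82, 4.61, 2.61 and 4.13 CPM in C1M and 26.6, 37.8, 30.5 and 33.5 CPM in C1MV (log2 fold change 3.08 ± 0.23 SE, FDR = 1.2e-25). Gata4 rose from 2.97–6.74 to 15.3–28.5 CPM (log2 fold change 1.90 ± 0.25 SE, FDR = 6.0e-11) and Sox17 from 2.06–7.45 to 11.7–21.7 CPM (log2 fold change 1.8 ± 0.27 SE, FDR = 3.1e-09). Foxq1, a forkhead factor gene, rose from 1.42–3.26 to 19.1–35 CPM (log2 fold change 3.69 ± 0.29 SE, FDR = 3.9e-24). None of these 4 overlapped between the groups. Sox7 had 3 reads over C1M and 41 over C1MV, with a ratio of levels of 15.7 (95% exact interval 5.00 to 79.1) and counting error only. The falls were in Hhex (-0.75 on the log2 scale, with no call without C1M replicate 3, FDR = 0.085, or without C1MV replicate 3, FDR = 0.183), Tcf7l2 (-0.45) and Pdx1, of which 4 reads were counted in C1MV and 21 in C1M. The call of Pdx1 (FDR = 0.0289) was lost by DESeq2 (FDR = 0.0583) and without C1M replicate 3, C1MV replicate 1, C1MV replicate 3 or C1MV replicate 4, with FDRs of 0.103, 0.0596, 0.069 and 0.0645, so that 1 of the 3 falls, Tcf7l2, was called without C1M replicate 3 or C1MV replicate 3.

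Effector genes of the extraembryonic endoderm, an epithelium that lays down basement membrane and takes up nutrients, rose in 21 of 26 tested cases and fell in 3 (median log2 fold change 1.76, or 1.49 with the 3 genes that held at most 3 reads per library in C1M set to the fold this floor allows). Their summed level was 3738 to 4199.6 CPM in C1M and 7167 to 8916 CPM in C1MV. Col4a1, a collagen chain of basement membranes, was at 21.6, 13.8, 30.3 and 20.6 CPM in C1M and 308, 416, 382 and 447 CPM in C1MV (log2 fold change 4.14 ± 0.12 SE, FDR = 1.1e-36). Its partner chain gene Col4a2 went from 11.5, 14.5, 19.6 and 16.1 to 156, 185, 198 and 207 CPM (log2 fold change 3.57 ± 0.12 SE, FDR = 1.1e-57). All C1MV libraries were high for both chains. The 2 genes lie head to head on chromosome 8, with RefSeq starts at 11312826 and 11312805 of GRCm38.p6, 21 bases apart. The genes of the receptor complex for cobalamin and protein uptake, cubilin and amnionless, were also higher. Amn was at 5.09, 4.97, 4.89 and 9.49 CPM in C1M and 54.8, 112, 109 and 83.5 CPM in C1MV (log2 fold change 3.90 ± 0.18 SE, FDR = 2.0e-33). Cubn had 3 reads over C1M and 145 over C1MV, a ratio of levels of 55.4 (95% exact interval 18.6 to 272) for counting error only. All of these C1M reads came from replicate 3, and without that library the level in C1MV was at least 13.5-fold higher against 3 reads per library. Dab2, an endocytic adaptor of the same cells, was at 14.9, 18.1, 21.5 and 8.26 CPM and then 156, 273, 259.5 and 243 CPM. C1MV replicate 1 was the lowest of its group for Amn, Cubn and Dab2. Ttr, which encodes transthyretin, was at 92.9–121 CPM in C1M already and 158–193 CPM in C1MV (log2 fold change 0.76 ± 0.19 SE, FDR = 0.0017), and Afp did not reach the minimum for testing. The falls were in Nid1, a linker of basement membranes (261, 242, 252 and 262 to 25.4, 17.6, 23.6 and 33.5 CPM, log2 fold change -3.4 ± 0.11 SE, FDR = 4.1e-62), in Fst and in Lamc1 (-0.28 on the log2 scale, with no call without C1MV replicate 1, FDR = 0.0771), so the basement membrane genes of the list did not all rise.

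**Figure D3:**
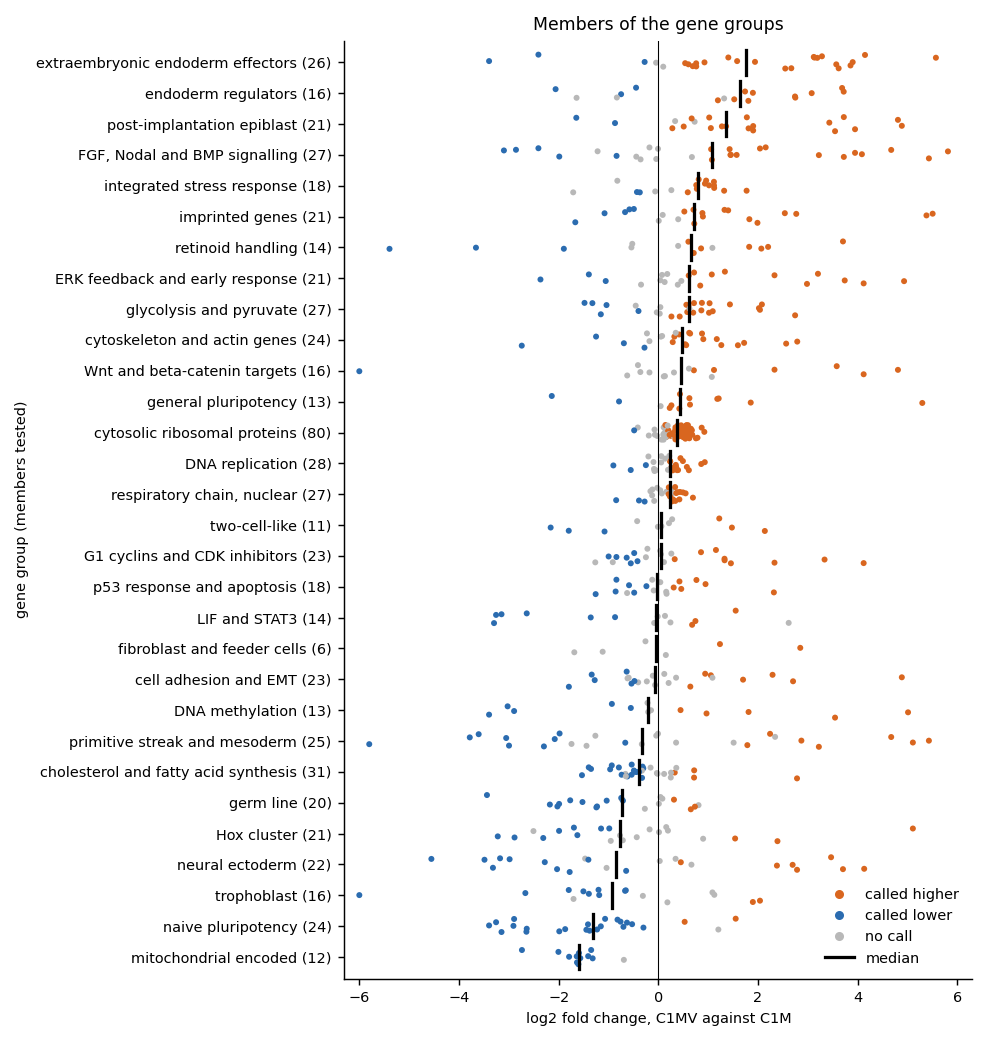
Log2 fold change of C1MV against C1M for each tested member of 30 gene groups. Orange points were called higher, blue points lower, grey points had no call, black bars mark the median, and values beyond 6 in either direction are drawn at the edge.

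Neural genes were divided, with 7 of 22 tested members higher and 10 lower, while Hes3, Fabp7, Dcx, Neurog1, Neurog2, Olig2 and Rax did not reach the minimum for testing. The median log2 fold change was -0.84, and 0 with the 9 members at the floor in a group set to what the floor allows. Sox1, the first marker of neural ectoderm, was at 22.9, 12.8, 15.6 and 18.2 CPM in C1M and 86.3, 86.5, 94.5 and 89.9 CPM in C1MV (log2 fold change 2.38 ± 0.13 SE, FDR = 6.5e-38). The neuronal tubulin gene Tubb3 went from 9.76, 8.16, 11.1 and 14.4 to 150.4, 106, 105 and 117 CPM (log2 fold change 3.46 ± 0.14 SE, FDR = 1.0e-50). Pax6 rose from 1.63–2.55 to 9.27–17.8 CPM (log2 fold change 2.69 ± 0.33 SE, FDR = 1.9e-12). Nes fell from 10.1–12.4 to 6.45–8.72 CPM (log2 fold change -0.65 ± 0.25 SE, FDR = 0.026, and no call without C1M replicate 2, C1MV replicate 1 or C1MV replicate 2, with FDRs of 0.0614, 0.0763 and 0.0669). Hes5 stayed at 0 in C1M and at or under 3 reads in each C1MV library. The 3 largest of the falls were in Otx1, Pax3 and Pou3f3, genes of transcription factors. Otx1 went from 12.4–14.9 CPM to 5 reads over the 4 C1MV libraries, a ratio of C1M to C1MV of 25.6 (95% exact interval 10.7 to 80.1) for counting error only. Pou3f3 and Pax3 had 6 and 3 reads over C1MV against 74 and 44 over C1M.

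Primitive streak and mesoderm genes gave 7 rises and 9 falls among 25 tested, and T, Tbx6, Msgn1 and Evx1 did not reach the minimum for testing. The rises were led by Lefty1, Lefty2 and Hoxb1. Hoxb1, the most 3′ gene of its cluster, was at 0.849, 0, 1.63 and 0 CPM in C1M and 21.4, 17.6, 20.7 and 44.2 CPM in C1MV (log2 fold change 5.11 ± 0.40 SE, FDR = 4.3e-18, and 6.27 without C1M replicate 3), with C1MV replicate 4 the highest. Gsc, an organizer homeobox gene, went the other way, from 14.9, 14.9, 12.1 and 18.2 CPM to 2 reads over the C1MV libraries. The ratio of C1M to C1MV was 68.9 (95% exact interval 18.8 to 574), for counting error only, and 117 without C1MV replicate 4. Mixl1 had 23 reads over C1M and 1 over C1MV, and Foxc2 20 and 1. The C1MV reads came from replicate 1 alone for Mixl1 and from replicate 3 alone for Foxc2. Kdr, a marker of vascular mesoderm, fell from 6.79–7.82 to 1.5–2.14 CPM (log2 fold change -1.98 ± 0.38 SE, FDR = 4.6e-06), and Mesp1 stayed under 2 CPM in every library of either group. Across the Hox clusters 3 of 21 tested genes rose, Hoxb1, Hoxb2 and Hoxb8, all of the B cluster, and 8 fell. Hoxb8 (1.54 on the log2 scale, FDR = 0.0239) had no call without C1M replicate 2, C1M replicate 4, C1MV replicate 2 or C1MV replicate 4, with FDRs of 0.0634, 0.101, 0.121 and 0.0931. Without C1M replicate 3 its log2 fold change was 2.14 (FDR = 0.00946). The largest falls were in Hoxd9 (5.09–15.3 to 0.403–3.57 CPM, log2 fold change -3.22 ± 0.50 SE, FDR = 1.9e-07, and -3.85 without C1MV replicate 4), Hoxd8 (-2.89 on the log2 scale) and Hoxc9 (-2.31), from levels under 16 CPM.

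Genes of retinoid handling gave 7 rises and 3 falls among 14 members. The retinoic acid-binding protein gene Crabp1 went from 33.5, 29.8, 31 and 31.8 to 119, 136, 147 and 123 CPM (log2 fold change 2.06 ± 0.18 SE, FDR = 5.4e-11) and Crabp2 from 0.71–2.93 to 18.2–27.1 CPM (log2 fold change 3.70 ± 0.32 SE, FDR = 2.6e-21, and 4.37 without C1M replicate 3). The retinaldehyde dehydrogenase gene Aldh1a3 fell from 23.3, 20.2, 19.9 and 17.7 CPM to 4 reads over C1MV. The ratio of C1M to C1MV was 47.1 (95% exact interval 18.1 to 174), for counting error only. The receptor gene Rarb had 79 reads over C1M and 5 over C1MV, and the reductase gene Dhrs3 fell from 21.1–22.2 to 4.28–7.27 CPM (log2 fold change -1.90 ± 0.25 SE, FDR = 2.4e-11).

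Lists for other cells that the cultures could hold were mostly low or lower in C1MV. Of 16 trophoblast genes tested 2 rose and 9 fell, and Elf5, Tpbpa and Prl3d1 did not reach the minimum. Gata3 fell from 11.1–16.0 to 0.714–2.62 CPM (log2 fold change -2.67 ± 0.37 SE, FDR = 2.6e-10), Krt7 was under 4 CPM in every library, and Ascl2 rose from 1.06–4.13 to 6.18–10.5 CPM (log2 fold change 1.90 ± 0.36 SE, FDR = 4.2e-06). Of 20 germ line genes 3 rose and 11 fell. Stra8, a gene of meiotic entry, was at 53.1, 58.5, 65.5 and 72.2 CPM in C1M and 4.84, 6.37, 5.45 and 6.42 CPM in C1MV (log2 fold change -3.44 ± 0.20 SE, FDR = 8.1e-35). Dazl fell from 69.6–80.9 to 13.8–20.6 CPM (log2 fold change -2.18 ± 0.15 SE, FDR = 7.1e-28), while Ddx4 (FDR = 0.901) and Sycp3 (FDR = 0.959) had no call. Of 11 two-cell-like genes 3 rose and 3 fell, all under 10 CPM for the risers Zscan4c, Zscan4d and Tcstv1, which belong to families of near-identical copies and are uncertain. Tcstv1 had no call without C1M replicate 1 (FDR = 0.0721) and Zscan4d none without C1MV replicate 1 (FDR = 0.055). Of 6 fibroblast genes tested none fell and 2 rose, Dcn (2.48–3.59 to 5.99–8.00 CPM, log2 fold change 1.24 ± 0.35 SE, FDR = 0.00204) and Tagln, with 3 reads over C1M and 22 over C1MV, and Col3a1 and Postn did not reach the minimum. The ratio of levels of Tagln was 8.41 (95% exact interval 2.53 to 43.9) for counting error only, and 18.0 without C1M replicate 3. Pdgfrb had no call (FDR = 0.051), but was called lower under RLE or library-size scaling, with the replicate block, in the fit of the compared groups alone and without C1M replicate 2 (FDRs of 0.0321 to 0.0489), and without C1MV replicate 3 both Pdgfrb and Col1a1 were (FDRs of 0.0187 and 0.00807). The summed fibroblast level was 17.4 to 23.5 CPM in C1M and 15.7 to 24.7 CPM in C1MV.

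Of 22 targets of β-catenin 16 were tested, of which 6 rose, 1 fell and 9 had no call. A member that rose, Tcf7, which encodes a DNA-binding partner of β-catenin (0.71 on the log2 scale, FDR = 0.0465), lost its call under 11 of 15 alternatives, namely RLE and library-size scaling, DESeq2, no filter on low counts, the replicate block and leaving out C1M replicate 2, 3 or 4 or C1MV replicate 2, 3 or 4, with FDRs up to 0.132. Where at least 1 CPM was required in all libraries, Lef1, Myc and Dkk1 were not tested and 3 members rose. Without C1M replicate 4 or C1MV replicate 4 a further member, Znrf3, which encodes a ubiquitin ligase that removes Wnt receptors, was called lower, with FDRs of 0.0393 and 0.0305 against 0.109 with all libraries, so that 2 fell. The summed level of the list was 163 to 188 CPM in C1M and 342 to 389 CPM in C1MV. Among the members that did not reach the minimum for testing were Sp5, Lgr5, Rnf43, T and Apcdd1. Lef1, given above, had the largest fitted rise of the list on the log2 scale. The Wnt inhibitor gene Dkk1 had 3 reads over C1M and 37 over C1MV, a ratio of levels of 14.1 (95% exact interval 4.48 to 71.7) for counting error only, and 31.2 without C1M replicate 2. Cdx1, a caudal homeobox gene, was at 6.37, 4.26, 2.61 and 3.30 CPM in C1M and had 0 reads in all 4 C1MV libraries, at least 2.97-fold lower against 3 reads per library.

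Cell adhesion and EMT genes gave 7 rises and 6 falls among 23 members. Cdh1, which encodes E-cadherin, the junction partner of β-catenin, was at 611, 603, 612 and 649 CPM in C1M and 160.5, 176, 176 and 206 CPM in C1MV (log2 fold change -1.8 ± 0.08 SE, FDR = 1.0e-46). Vimentin (Vim) went from 34, 27.7, 34.2 and 28.5 to 190.3, 217, 203 and 199.8 CPM (log2 fold change 2.70 ± 0.10 SE, FDR = 1.1e-55). The groups were far apart for both. Fn1, encoding fibronectin, fell from 499.8–577 to 213–254 CPM (log2 fold change -1.28 ± 0.07 SE, FDR = 2.2e-36), and Snai2 fell from 2.06–5.54 to 0–2.62 CPM with overlap (FDR = 0.0212, and 0.0545 to 0.0873 without C1M replicate 1, C1M replicate 3, C1MV replicate 3 or C1MV replicate 4). Esrp1, an epithelial splicing factor gene, rose from 0–1.30 to 1.61–7.85 CPM (log2 fold change 2.29 ± 0.59 SE, FDR = 6.0e-04, and 2.95 without C1M replicate 3). Of 24 cytoskeletal genes 15 rose and 4 fell, with the largest rises in the myosin light chain gene Myl9 (2.79 on the log2 scale), the α-tubulin gene Tuba1a (87.4, 90.1, 84.1 and 79.7 to 475, 493, 530.3 and 523 CPM, log2 fold change 2.56 ± 0.09 SE, FDR = 1.1e-43) and Anxa2 (1.72), and with S100a6 (-2.74), Actg1 (-1.25) and Lgals1 (-0.69) lower on the log2 scale.

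Of the D-type cyclin genes, which drive entry into S phase, Ccnd1 and Ccnd2 rose and Ccnd3 fell. Ccnd2 was at 3.4, 6.03, 6.85 and 6.60 CPM in C1M and 49.6, 62.9, 64.0 and 59.2 CPM in C1MV (log2 fold change 3.33 ± 0.19 SE, FDR = 2.0e-33), and Ccnd1 went from 17.4, 26.3, 24.1 and 21.5 to 129, 102, 115 and 106 CPM (log2 fold change 2.33 ± 0.12 SE, FDR = 1.2e-39). Ccnd3 fell from 535, 634, 563 and 598 to 300.0, 292, 331 and 234 CPM (log2 fold change -1.0 ± 0.08 SE, FDR = 1.6e-23). QuantSeq gives about 1 read per transcript, so levels may be set side by side without length, and Ccnd3 remained the highest of the 3 in every C1MV library. The CDK inhibitor gene Cdkn1a and the pocket protein gene Rbl1 had log2 fold changes of -0.84 ± 0.08 and -0.64 ± 0.18 (SE), and the list had 9 rises and 6 falls among 23 members. Of 28 DNA replication genes 14 rose and 3 fell, by small amounts, from -0.90 (Orc1) to 0.93 (Pold1). Mcm2, a subunit of the replicative helicase, went from 143–168 to 259–300.3 CPM (log2 fold change 0.86 ± 0.08 SE, FDR = 3.2e-18).

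Genes of glycolysis and pyruvate handling rose in 17 of 27 cases and fell in 5 (median log2 fold change 0.61). Slc16a3, the lactate exporter gene MCT4, was at 25.5, 29.8, 26.1 and 24.8 CPM in C1M and 183, 209, 142 and 179.8 CPM in C1MV (log2 fold change 2.74 ± 0.11 SE, FDR = 1.2e-48). The phosphofructokinase gene Pfkl went from 40.3, 52.9, 49.2 and 61.1 to 187, 218, 218 and 241 CPM (log2 fold change 2.08 ± 0.10 SE, FDR = 2.8e-44) and the glucose transporter gene Slc2a1 from 47.5, 50.4, 50.5 and 42.1 to 169.8, 215, 175 and 233 CPM (log2 fold change 2.04 ± 0.11 SE, FDR = 6.8e-32). All C1MV libraries lay above all C1M libraries for these 3. The sister phosphofructokinase gene Pfkp fell from 336–372 to 132–151 CPM (log2 fold change -1.32 ± 0.09 SE, FDR = 4.0e-31), as did Hk1 (-1.16 on the log2 scale), the hexokinase of the first step, and Mpc1 (-1.48), of the mitochondrial pyruvate carrier. The 250 bases before the RefSeq starts of Slc16a3 (GRCm38.p6, chr11:120948817-120949066, plus strand) and Slc2a1 (chr4:119108495-119108744, plus strand) are shown because these were the transporters of the list with the largest rises, with capitals marking ACGTG on either strand, the letters at the core of hypoxia response elements.
Slc16a3: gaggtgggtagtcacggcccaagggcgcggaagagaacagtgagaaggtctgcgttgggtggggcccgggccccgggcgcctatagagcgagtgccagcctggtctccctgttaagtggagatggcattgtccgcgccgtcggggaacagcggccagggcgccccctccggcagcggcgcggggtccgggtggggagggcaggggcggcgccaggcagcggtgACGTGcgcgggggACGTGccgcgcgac
Slc2a1: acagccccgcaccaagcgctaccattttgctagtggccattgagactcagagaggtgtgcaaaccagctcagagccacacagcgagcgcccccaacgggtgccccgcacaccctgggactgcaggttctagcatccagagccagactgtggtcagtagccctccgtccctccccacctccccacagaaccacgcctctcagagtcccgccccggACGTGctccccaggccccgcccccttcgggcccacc
The matches begin 27 and 14 bases before the start of Slc16a3 and 36 bases before that of Slc2a1. Of the 17 members that rose, 16 have a window and 10 of these hold ACGTG in at least 1, against 1 of 5 that fell and 1 of 5 without a call. Of all single windows 16.6% hold it. That share is per window, whereas a member with several starts has several windows, and no share per gene was computed over all genes. The windows of Pfkl hold none. A match is a string of letters and says nothing of binding.

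All 12 tested mitochondrially encoded genes had a negative log2 fold change and 11 of them fell, with a median of -1.60. mt-Nd1, a complex I subunit, was at 6139, 6218, 6012 and 5680.0 CPM in C1M and 1893, 1643, 1595 and 1820.1 CPM in C1MV (log2 fold change -1.79 ± 0.09 SE, FDR = 9.9e-19). The cytochrome oxidase genes mt-Co2 and mt-Co3 had log2 fold changes of -2.74 and -2.0. Respiratory chain genes encoded in the nucleus went the other way in 14 of 27 cases and fell in 3, by small amounts, from -0.85 (Cox5a) to 0.69 (Cox4i1). Cytosolic ribosomal protein genes rose in 60 of 80 cases and fell in 1, with a median log2 fold change of 0.37, and these genes took 8.75 to 9.26% of gene reads in C1M and 10.9 to 12.0% in C1MV. Many of them have processed copies in the genome, so single members are uncertain.

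Of 31 genes of cholesterol and fatty acid synthesis, 17 were lower, 4 higher and 10 without a call (median log2 fold change -0.39). Elovl6, a fatty acid elongase gene, was at 245, 204, 235 and 238 CPM in C1M and 98.8, 88.7, 86.5 and 86.3 CPM in C1MV (log2 fold change -1.35 ± 0.09 SE, FDR = 3.7e-30). Hsd17b7, of cholesterol synthesis, fell from 40.9–52.9 to 14.3–18.1 CPM (log2 fold change -1.53 ± 0.15 SE, FDR = 1.1e-16). Cyp51, which demethylates lanosterol, rose from 146–176 to 249–284 CPM (log2 fold change 0.72 ± 0.08 SE, FDR = 1.3e-14). Genes of the integrated stress response rose in 12 of 18 cases and fell in 2. Ddit4, an inhibitor of mTOR complex 1, went from 184, 186, 171 and 176 to 529.8, 862, 578 and 464 CPM (log2 fold change 1.77 ± 0.17 SE, FDR = 1.6e-09), Chac1 rose by 1.32 and Shmt2 by 1.12, and Nupr1 (-0.43) and Asns (-0.37) fell. The p53 response list had 6 rises and 6 falls of 18, led by Bbc3, which encodes the apoptosis activator Puma (7.22–8.48 to 35.9–44.8 CPM, log2 fold change 2.32 ± 0.18 SE, FDR = 4.4e-24), and by Sesn1 among the falls (-1.26).

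Imprinted genes rose in 13 of 21 tested cases and fell in 5 (median log2 fold change 0.72, or 0.70 with Igf2 at the fold that 3 reads per library allow). H19, a noncoding RNA, was at 0.424, 0.71, 2.28 and 0 CPM in C1M and 33.1, 52, 58.9 and 30 CPM in C1MV (log2 fold change 5.50 ± 0.37 SE, FDR = 5.3e-17). Nnat went from 0.424, 2.13, 4.24 and 0.413 to 63.7, 85.7, 96.7 and 89.9 CPM (log2 fold change 5.38 ± 0.30 SE, FDR = 1.5e-16). Both were low in all C1M libraries, with replicate 3 the highest, and without that library their log2 fold changes were 6.64 and 6.25. Plagl1 fell from 21.2–25.2 to 6.91–7.66 CPM (log2 fold change -1.67 ± 0.23 SE, FDR = 1.6e-10), and Zrsr1 and Peg10 had log2 fold changes of -1.08 and -0.67. Igf2 was called (FDR = 0.0404) but had only 1 read over C1M and 9 over C1MV, and its call was lost by DESeq2 (FDR = 0.0601), with no filter on low counts (FDR = 0.0537) and without C1M replicate 1, 3 or 4 or C1MV replicate 2 or 3, with FDRs of 0.0763 to 0.311.

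By absolute level the largest rises were in Actb, Rps20, Hsp90ab1, Rps14 and Rps12. Actb, which encodes β-actin, was at 4509, 4898, 4788 and 5162 CPM in C1M and 7848, 8013, 7433 and 6797 CPM in C1MV (log2 fold change 0.64 ± 0.06 SE, FDR = 4.6e-19). Rps12 rose from 1886–2058 to 3132–4026 CPM, and Rps14 from 3596–4558 to 4404–7642 CPM with overlap, since C1MV replicate 4 was the lowest of its group. The largest falls were in Malat1, mt-Nd1, mt-Nd4, Hsp90aa1 and mt-Nd2. Malat1, a nuclear noncoding RNA, was at 10112, 8589, 10380.1 and 9159 CPM in C1M and 1772, 1668, 1899 and 2377 CPM in C1MV (log2 fold change -2.31 ± 0.13 SE, FDR = 1.8e-14), and mt-Nd4 at 7043, 6022, 6753 and 6287 and 2392, 1897, 2405 and 3154 CPM (log2 fold change -1.41 ± 0.15 SE, FDR = 1.3e-08). C1MV replicate 4 was the highest of its group for both and also held the most reads outside annotated genes. The HSP90 genes moved apart, with Hsp90ab1 up by 0.29 ± 0.06 and Hsp90aa1 down, at -1.01 ± 0.06 (SE) on the log2 scale.

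The day 4 change was next set against that of the knockout cells, which carry the same construct but were not induced (C1 at day 0, C1T at day 4). These cells had 10 μM TMP both before and during the 4 days and no dox at either time, and they were not sorted by mCherry, whereas C1MV cells had no TMP during the 4 days. The β-catenin pulse, the exposure to dox, the TMP of the 4 days and the sort therefore cannot be told apart in this comparison. The change of moderate cells differed from theirs for 3443 of 15280 genes (22.5%), with 1676 differences positive (11.0%) and 1767 negative (11.6%). Among called genes averaging log2 CPM 4 or more over the libraries compared, the largest positive differences were in the basement membrane genes Lama1, Col4a1, Col4a2 and Sparc, in the secreted protease gene Htra1 and in S100a1. Lama1, a laminin chain gene, went from 21.2, 14.5, 17.6 and 15.7 to 162, 195, 212 and 288 CPM in moderate cells and was at 13.9 ± 2.38 CPM in C1 and 4.48 ± 1.42 CPM in C1T (SD, n = 4), a difference of the changes of 5.30 ± 0.38 SE, FDR = 1.0e-14. Sparc rose from 855 ± 46.1 to 2263 ± 196 CPM in moderate cells and went from 1329 ± 132 to 218 ± 19.4 CPM in knockout cells (difference 4.01 ± 0.10 SE, FDR = 9.3e-77). For Col4a1 and Col4a2 the differences were 3.83 and 4.09, and knockout cells held 24.6 and 30.4 CPM of the first and 18.0 and 12.5 CPM of the second at day 0 and day 4. Htra1 was at 58.6 ± 10.5 and 47.7 ± 4.35 CPM in moderate cells and went from 64.6 ± 4.53 to 1.96 ± 1.17 CPM in knockout cells (difference 4.71 ± 0.29 SE, FDR = 7.8e-32). S100a1 had means of 61.2 and 60.7 CPM in moderate cells and 179 and 13.5 CPM in knockout cells.

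At the same minimum level the largest negative differences were in Gadd45g, Pim2, Fabp5, Nqo1, Taf7l and Cilp2. Gadd45g, a growth arrest gene, rose from 8.99 ± 4.19 to 55.4 ± 11.1 CPM in moderate cells and from 4.36 ± 1.90 to 267 ± 27.4 CPM in knockout cells (difference -3.33 ± 0.38 SE, FDR = 1.8e-09). Pim2, a serine/threonine kinase gene, reached 31.5 ± 3.96 CPM in C1MV and 165 ± 13.1 CPM in C1T (difference -2.92 ± 0.30 SE, FDR = 2.4e-15). Moderate cells thus ended at lower levels of both. Fabp5 fell from 106 to 22.5 CPM and went from 28.2 to 42.3 CPM in knockout cells (difference -2.80), and Nqo1, a quinone reductase gene, fell from 35.7 to 6.61 CPM against means of 20.9 and 29 CPM in knockout cells (difference -2.77). By group, 15 of 26 extraembryonic endoderm effectors had a positive and 0 a negative difference, and 7 of 16 endoderm regulators a positive and 0 a negative one. The post-implantation epiblast list had 4 positive and 12 negative of 21, the naive list 12 and 5 of 24, and the germ line list 1 and 15 of 20. Gata6 was among the positive ones (1.92 ± 0.64 SE, FDR = 0.0187), but at 1.04 on the log2 scale it was not called without C1 replicate 1 (FDR = 0.479). Sox17 was at 2.36 ± 0.975 CPM in C1 and 0.24 ± 0.48 CPM in C1T, where no library held more than 3 reads.

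The high sorted fraction, treated the same way (C1H at day 0, C1HV at day 4), gave few differences. By edgeR's test 8 of 15280 genes (0.0524%) changed differently, 6 with a positive (0.0393%) and 2 with a negative difference (0.0131%), and 1062 had an unadjusted p under 0.05. DESeq2, whose filter left 6 of these 8 without an adjusted p, called 25, the fit without C1MV replicate 4 called 18, and those without C1HV replicate 1 or 3 called 5 each. All 8 genes are named here, and except for Ctnnb1 and Gm21761 each lost its call under 1 or more of the alternatives. Ctnnb1 was the largest, with a difference of 2.23 ± 0.34 SE, FDR = 1.4e-05, where C1H started at 41.2 ± 5.70 CPM and C1HV held 6.21 ± 1.84 CPM. The fractions were defined by the mCherry of the β-catenin fusion, so a higher start of Ctnnb1 in C1H was built into the sort. The fold of Slc13a5 was smaller in moderate cells (177 to 14.7 CPM against 165 to 5.97 CPM, difference 1.19 ± 0.26 SE, FDR = 0.0255). The falls of Chka, a choline kinase gene (0.87), and Fbxo15 (0.52) were also smaller. Nelfa went from 67.4 to 81.4 CPM in moderate and from 98.2 to 70.3 CPM in high cells (0.77), and the predicted gene Gm21761 rose more in moderate cells (0.90). Otx2 (-0.53) and the amino acid transporter gene Slc7a7 (-1.71) rose less in moderate cells. A gene without a call here is not shown to change alike in the 2 fractions.

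Withdrawal itself was compared at day 4 with the same sorted fraction kept in dox and TMP (C1MDT). C1MV differed from C1MDT in 1924 of 15280 genes (12.6%), 909 higher (5.95%) and 1015 lower (6.64%). This comparison shares the C1MV libraries with the one above. Among called genes averaging log2 CPM 4 or more over the libraries compared, members of the naive list, Jam2, Esrrb, Zfp42 and Tcl1, were 4 of the 6 largest positive differences. Over all tested genes 49 were past a log2 fold change of 2 and 18 under -2, mostly below that level. Jam2, an adhesion gene, was at 34.7 ± 7.38 CPM in C1MV and 7.61 ± 1.82 CPM in C1MDT (log2 fold change 2.16 ± 0.19 SE, FDR = 2.2e-15), beside 264 CPM at day 0. Esrrb was at 142 ± 24.1 and 39.5 ± 9.93 CPM (1.85 ± 0.11 SE, FDR = 7.3e-26), and Zfp42 and Tcl1 differed by 1.64 and 1.63. These 4 had fallen from day 0 in C1MV and their means were lower still with the inducers kept. The secreted phosphoprotein gene Spp1 (1.72) and the noncoding RNA Neat1 (1.60) were the other 2 of these 6. In the naive list 16 of 24 members were higher and 1 lower in C1MV than in C1MDT.

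The 6 largest negative differences at that level were in Ctnnb1, whose inducers were absent (9.16 ± 2.57 against 29.2 ± 4.29 CPM, log2 fold change -1.75 ± 0.21 SE, FDR = 5.6e-12), Pim2 (-1.47), the vertnin gene Vrtn (-1.28), Cdk5r2 (-1.24) and the mevalonate pathway genes Fdps and Mvd. Fdps was at 124 ± 15.7 CPM in C1MV and 303 ± 22.5 CPM in C1MDT (-1.27 ± 0.09 SE, FDR = 5.6e-27), and Mvd at 297 ± 48.8 and 715 ± 66.1 CPM (-1.26 ± 0.13 SE, FDR = 8.4e-08). At day 0 they had been at 175 and 303 CPM. Of the 31 genes of cholesterol and fatty acid synthesis, 27 were lower and 0 higher in C1MV. In the endoderm lists 2 of 16 regulators were lower and 1 higher, and 9 of 26 effectors lower and 4 higher.

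**Figure D4:**
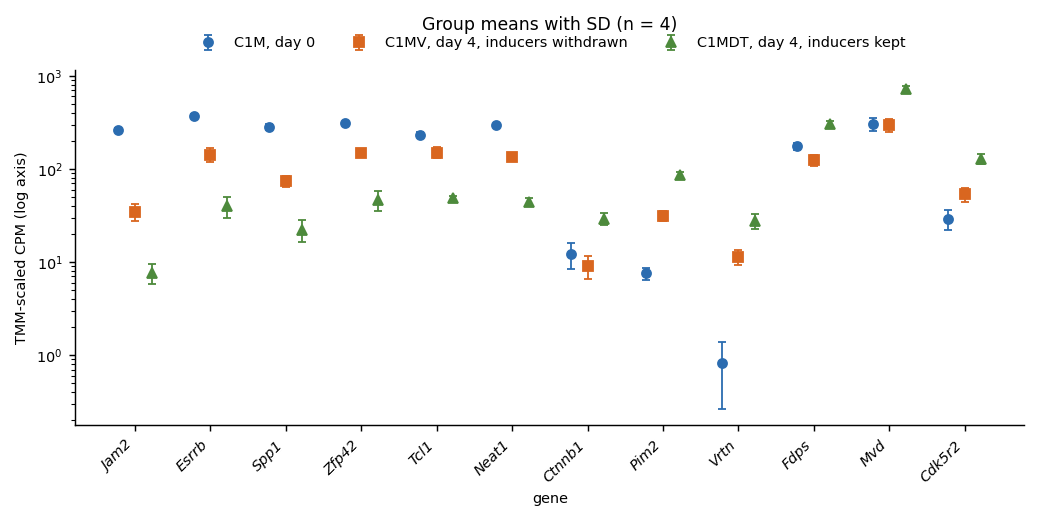
Group means of TMM-scaled CPM with SD (n = 4) on a log axis for the 12 genes with the largest differences, 6 in each direction, between C1MV and C1MDT among called genes averaging log2 CPM 4 or more, shown for C1M at day 0, C1MV at day 4 and C1MDT at day 4. Jam2, Esrrb and Zfp42 step down from C1M to C1MV and again to C1MDT, while Fdps and Mvd are highest in C1MDT.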

How the data were processed

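The deposited values are raw read counts per gene for 32 libraries. The authors trimmed QuantSeq 3′ reads with bbduk, aligned them with STAR to mm10 and counted unique reads with htseq-count. Such counting makes genes with near-identical copies uncertain, and sequencing from the 3′ end makes counts independent of transcript length to a first order.

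Counts were fitted in edgeR 4.0.16 (R 4.3.3) with TMM scaling and robust quasi-likelihood dispersions over all 8 groups of 4 libraries, for the 15280 genes that reached 1 CPM in 4 or more libraries. Contrasts were C1MV against C1M, this change minus that of C1T against C1 or of C1HV against C1H, and C1MV against C1MDT, with Benjamini-Hochberg adjustment at 0.05. Levels are TMM-scaled CPM. The SE of a log2 fold change or difference is its absolute value divided by the square root of the quasi-likelihood F statistic. It was back-calculated and is not an SE estimated by the model. Where a group held at most 3 reads per library, folds are bounds or ratios of pooled reads with exact 95% intervals, which cover counting error only. The labels call the replicates biological and do not say how cultures were separated, so p-values measure the spread between these libraries. The labels name no batch. For a batch correction shown in its principal component analysis, the study took replicates as batches and proposed that the correction was negligible. Its account of the edgeR analysis names no batch term. The replicate block used here as an alternative also treats the replicate numbers as batches.

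Named genes are Ctnnb1, Axin2, the 10 largest rises and falls without overlap at a mean log2 CPM of at least 4, the 5 largest by CPM, the 3 largest rises and falls per gene group, cell type markers, and up to 6 genes per direction of the other contrasts. Pou3f1, Otx2 and Fgf5 among the epiblast genes, and Gm21761, Znrf3, Tcf7, Pdgfrb and Col1a1, were chosen after their values were seen. The members and lists were chosen with earlier results of these data known. Alternatives were RLE and library-size scaling, DESeq2 1.42.0, other filters, a replicate block, a fit of the compared groups alone, and leaving out each library. On simulated counts for C1MV against C1M (15280 genes, 200 changed) the fit recovered 79% of 2-fold and 100% of 4-fold changes, and 5.29% of calls were false. The changed genes were drawn from those averaging over 5 CPM, so the recovery does not cover genes at lower levels. The simulation also changed far fewer genes than the 45.9% called in the data. Promoters are the 250 bases before RefSeq starts of GRCm38.p6. Gene names and positions are from GENCODE M21, and 31011 of 31053 gene identifiers had one. Some members of the list of cholesterol and fatty acid synthesis are not reported here by name.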

Additional observations from a re-analysis of the deposited data

Results flagged for a closer look

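Single libraries stood far from the other 3 of their group by Dixon's criterion for 18 gene values and 1 library measure, out of at most 388 groups tested for genes, and chance flags about 1 in 20 groups. In C1M, replicate 3 was high for Foxq1 (3.26 CPM), Gap43 (6.85 CPM), Lef1 (6.19 CPM) and Lefty1 (12.4 CPM) and low for Nqo1 (31.9 CPM). Replicate 4 was high for Amn (9.49 CPM), replicate 1 for Pax6 (2.55 CPM), and replicate 2 was low for Tfcp2l1 (1159 CPM) and Zic2 (4.26 CPM). In C1MV, replicate 4 was apart for Crabp2 (27.1 CPM), Hoxb1 (44.2 CPM), Lefty1 (196 CPM) and Pold1 (72.8 CPM), and held 18.7 reads outside annotated genes per 100 gene reads. Replicate 2 was apart for Aqp3 (8.99 CPM) and Gadd45g (71.9 CPM), replicate 1 was high for Dusp14 (14.1 CPM), and replicate 3 was apart for Foxd3 (5.09 CPM) and high for Col1a1 (3.63 CPM).

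The change of moderate cells differed from that of knockout cells for 3443 genes. Among those named the difference was 5.30 for Lama1, 4.71 for Htra1, 4.09 for Col4a2, 4.01 for Sparc, 3.83 for Col4a1, 3.80 for S100a1 and 1.92 for Gata6 on the log2 scale, and -3.33 for Gadd45g, -2.92 for Pim2, -2.80 for Fabp5 and -2.77 for each of Nqo1, Taf7l and Cilp2. It differed from that of high cells for 8 genes, by 2.23 for Ctnnb1, 1.19 for Slc13a5, 0.90 for Gm21761, 0.87 for Chka, 0.77 for Nelfa, 0.52 for Fbxo15, -0.53 for Otx2 and -1.71 for Slc7a7.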

How the results depend on the processing

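The counts of genes called in C1MV against C1M (6422 to 6880 with 1 library left out, and 5434 to 7021 under the other alternatives), in the difference from knockout cells (3101 to 3434 with 1 library left out) and in C1MV against C1MDT (1403 to 1831 with 1 library left out) stayed within 1.5 times the values reported. Past a log2 fold change of 2, 236 genes were left where at least 1 CPM was required in all libraries, against 1238, since that filter drops genes that are absent from a group. The difference from high cells rested on few genes, with 25 calls by DESeq2 and 5 to 18 with 1 library left out. Of 900 counts over the gene groups under the alternatives 28 moved by over 1.5 times, mostly under the filter in all libraries. Of the named genes recomputed, 194 for C1MV against C1M, 13 for knockout cells, 8 for high cells and 12 against C1MDT, none changed direction with a call on both sides. The calls of 19 genes in C1MV against C1M were lost or gained under some alternative, those of Col1a1, Ctnnb1, Dnmt1, Hhex, Hoxb8, Htra1, Igf2, Krt7, Lamc1, Nelfa, Nes, Pdgfrb, Pdx1, Snai2, Taf7l, Tcf7, Tcstv1, Znrf3 and Zscan4d. Deviations from the group means had a mean correlation of -0.0152 between C1M and C1MV libraries of the same replicate number. The mean for different numbers (0.00502) largely follows from it, since deviations within a group cancel. Whether equal numbers share a culture or sort cannot be told from these values. The fit with a replicate block called 6953 genes in C1MV against C1M, 1230 past a log2 fold change of 2, 3385 for knockout cells, 8 for high cells and 1858 against C1MDT. In C1MV against C1M it ended the calls of Htra1 (FDR = 0.052) and Tcf7 (FDR = 0.0513), called Pdgfrb (FDR = 0.0419) and changed the call of no other gene named in the text. With library size alone as scaling, 3162 genes were called higher and 3859 lower. Depth limits genes under 1 to 2 CPM, which is the level of 3 reads in a library.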
